A study of Rattus norvegicus with 15 samples.

Results

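The gene expression change of the rat cortex over late embryonic development was described by comparing E18.5 with E14.5 (E, embryonic day) across both maternal diets. The comparison used 9 of the 15 libraries of the series, 4 from E18.5 and 5 from E14.5. The E18.5 libraries were HFD replicates 1 and 2 and control replicates 2 and 3, and the E14.5 libraries were HFD replicates 1 and 2 and control replicates 1 to 3. E18.5 control replicate 1 was left out, and this choice rested on its measured values, given with the principal components. All embryos were of Wistar rats. HFD mothers were fed before mating and through gestation with chow whose fat gave 60% of its calories, and control mothers received normal chow. Per the study's methods each library held the frontal lobe cortices of 1 litter, pooled, so no value belongs to 1 embryo, and different litters supplied the 2 stages. Ribosomal RNA was removed before sequencing, and for each gene the table gives an estimated number of reads.

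Between these days the cortical wall changes from a sheet of mostly dividing progenitors to a layered plate of young neurons. Radial glia, the stem cells that line the ventricle, divide and give rise to intermediate progenitors and neurons. Deep-layer neurons that project out of the cortex are born first, and upper-layer neurons that connect the hemispheres follow. Young neurons then grow axons, switch to neuronal splicing and begin to make receptors, channels and vesicle proteins. Toward birth, radial glia turn to making astrocytes and later oligodendrocyte precursors. In bulk tissue, fewer cells of a type and less RNA per cell cannot be told apart, and this holds for each value below.

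The 9 libraries held between 5849460 and 9030629 counts. CPM, the unit of level used throughout, are read counts made relative to library size, with TMM factors adjusting each size for composition. CPM do not account for gene length, so they are compared between libraries and not between genes. Values of single libraries are in the order HFD, then control, by replicate number. Means are given ± SD (n = 4 at E18.5, n = 5 at E14.5) and log2 fold changes of E18.5 over E14.5 ± SE, with adjusted p from edgeR's quasi-likelihood test. The first principal component of log2 CPM was fitted on the 9 libraries compared and took 69.4% of their variance. The other libraries were projected onto it. On it the 4 E18.5 libraries lay between 67.9 and 80.9 and the 5 E14.5 libraries between −79.2 and −30.6, with the 5 E16.5 libraries in between at 19.7 to 39.0. The library labelled E18.5 control replicate 1 lay at −45.3, among the E14.5 libraries. Its Neurod6, Bcan and Hbe1 levels of 5.99, 0.631 and 905 CPM were far from the 186 to 232, 36.9 to 50.2 and 22.2 to 46.5 CPM of the other E18.5 libraries and within or next to the 1.27 to 20.97, 0.106 to 1.204 and 829 to 1659 CPM of the E14.5 libraries. TMM factors were 0.99 to 1.07 apart from 0.832 in E18.5 HFD replicate 1. In that library 1 unnamed gene took 6.98% of the counts. The same gene took 6.26% in E14.5 control replicate 1, which had a factor of 0.995.

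Of 15217 genes tested with diet as a covariate, 4412 (29.0%) were higher and 4279 (28.1%) were lower at E18.5 by edgeR's quasi-likelihood test at an adjusted p under 0.05. Changes of over 2-fold were called for 2185 genes higher and 1804 lower, and of over 8-fold for 247 higher and 248 lower. The 8691 genes called made 57.1% of those tested, the median log2 fold change over all genes tested was −0.01, and each list of genes below is read against these values. In 3948 genes (25.9%) every E18.5 library used was above every E14.5 library, and in 3444 (22.6%) every E18.5 library used was below. These counts depend on leaving out E18.5 control replicate 1, which lay among the E14.5 libraries, and were not taken with it. The same limit holds for each statement below that the stages did not overlap. With E18.5 control replicate 1 included, 3495 genes were higher and 2646 lower. Of the 189 called genes named here, 41 then lost their call, among them Hbe1 (−3.27, adjusted p = 0.0533), Hmga2 (−2.60, adjusted p = 0.104), Igf2 (−1.43, adjusted p = 0.112) and Twist1 (−2.49, adjusted p = 0.147). The labels give no sequencing batch or date, so no values within batches could be given.

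**Figure D1:**
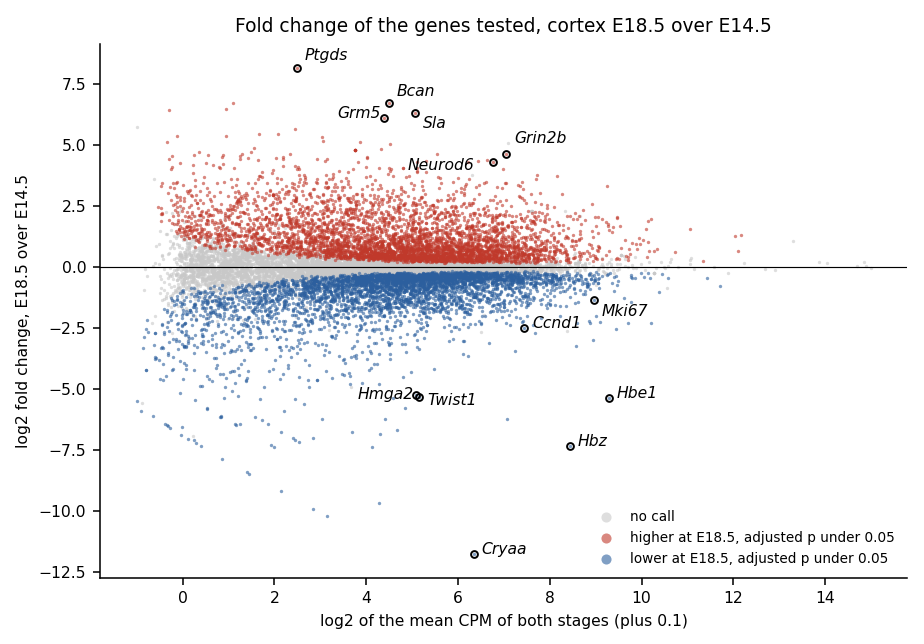
Log2 fold change of E18.5 over E14.5 (vertical axis) against the log2 mean CPM of both stages (horizontal axis), 1 point for each of the 15217 genes tested. Red points are the 4412 genes higher and blue points the 4279 genes lower at E18.5 by adjusted p, grey points were not called, and 13 genes of the text are circled.

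Ptgds, Bcan and Sla had the 3 largest increases of the genes named by the rule. Ptgds, which makes prostaglandin D2 and is made by meninges and glia, had 9.31, 10.8, 12.4 and 11.5 CPM in the E18.5 libraries and 0, 0, 0, 0.115 and 0 CPM in the E14.5 libraries. A single E14.5 read was counted, which puts the ratio at 460-fold higher (95% interval 82.1 to 18200, exact for the counts). Bcan, the brain matrix proteoglycan brevican, had 50.2, 42.98, 48.3 and 36.9 CPM in the E18.5 libraries and 0.348, 0.106, 1.204, 0.115 and 0.564 CPM in the E14.5 libraries (log2 fold change 6.69 ± 0.35, adjusted p = 5.35e-06). Sla, an adaptor protein that dampens receptor signaling, had 76.9, 60.2, 60.95 and 67.2 CPM in the E18.5 libraries and 0.696, 0.741, 0.8603, 0.807 and 1.01 CPM in the E14.5 libraries (log2 fold change 6.30 ± 0.15, adjusted p = 3.8e-08), and it had the smallest p of all genes higher. In these 3 genes the lowest E18.5 library was far above the highest E14.5 library.

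Grm5, a metabotropic glutamate receptor, rose by 6.11 ± 0.38 on the log2 scale. Its levels were 38.4, 41.6, 40.4 and 43.3 CPM in the E18.5 libraries and 0.696, 0.423, 0.344, 0 and 1.35 CPM in the E14.5 libraries. Grin2b, the NMDA receptor subunit of the fetal brain, had 280.3, 268, 252 and 218 CPM in the E18.5 libraries and 8.58, 3.39, 16.2, 1.96 and 28.1 CPM in the E14.5 libraries (log2 fold change 4.61 ± 0.67, adjusted p = 0.000522). In Grin2b the E14.5 libraries spread widely, from 1.96 to 28.1 CPM, while the E18.5 libraries lay within 218 to 280.3 CPM. Other genes among the 12 largest increases were Jakmip3 (5.65), the cation channel gene Trpc7 (5.31), the proline transporter gene Slc6a7 (5.15), the Ras exchange factor gene Rasgrf1 (5.12), the ubiquitin ligase gene MARCH4 (4.84), the dynein subunit gene Dync1i1 (4.63) and the β-synuclein gene Sncb (4.51), each as a log2 fold change. Some of the steadiest increases were smaller. The zinc finger gene Hivep2 had 339, 271, 271 and 275 CPM in the E18.5 libraries and 42.1, 37.8, 41.6, 34.7 and 41.8 CPM in the E14.5 libraries (log2 fold change 2.86 ± 0.10, adjusted p = 6.89e-07), and Camkv, a kinase-like protein of synapses, had 84.5, 73.9, 84.6 and 81.9 CPM in the E18.5 libraries and 13.1, 11.1, 11.01, 14.1 and 14.1 CPM in the E14.5 libraries (log2 fold change 2.68 ± 0.10, adjusted p = 1.03e-06). Fam49a and the guanine nucleotide exchange factor gene Ngef rose by 4.02 ± 0.16 and 3.52 ± 0.16 on the log2 scale.

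Of the 12 genes with the largest decreases by the rule, 7 were crystallins, the structural proteins of the eye lens. Cryaa had 0, 0, 0 and 0.121 CPM in the E18.5 libraries and 148, 242, 132, 146 and 142 CPM in the E14.5 libraries, a ratio of 4990-fold lower (95% interval 896 to 197000, exact for the counts). The other crystallins were Crybb1 (0.181 ± 0.149 CPM at E18.5 and 34.6 ± 12.7 CPM at E14.5), Cryga (0.324 ± 0.225 CPM at E18.5 and 39.1 ± 20.8 CPM at E14.5), Crygd (0.262 ± 0.302 CPM at E18.5 and 25.3 ± 10.99 CPM at E14.5), Crybb3 (0.0334 ± 0.0668 CPM at E18.5 and 38.7 ± 11.98 CPM at E14.5), Cryba4 (0.0721 ± 0.0864 CPM at E18.5 and 11.4 ± 5.58 CPM at E14.5) and Crygf, which had no read at E18.5 and had at E14.5 a level at least 34.7-fold higher than the 3 counts per library taken as the floor. Barx1, Pax1 and Pitx1, transcription factors of the jaw, vertebral and facial primordia, and Esrp1, a splicing factor of epithelia, were in the same set. Barx1 had no read at E18.5 and 24.7, 24.8, 32.5, 4.38 and 1.804 CPM in the E14.5 libraries, at least 43.3-fold lower against the same floor. Hbz, an embryonic α-type globin, completed the set with 3.96, 3.95, 3.07 and 5.69 CPM in the E18.5 libraries and 410.5, 754, 349, 1578 and 366 CPM in the E14.5 libraries (log2 fold change −7.33 ± 0.65, adjusted p = 3.67e-05). These genes mark tissues outside the cortex, and their levels in every library are taken up again below.

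Genes with the smallest p among those lower included 3 replication-dependent linker and core histones, which cells make during S phase. Hist1h1b had 138, 120.3, 153 and 144 CPM in the E18.5 libraries and 393, 373, 404, 445 and 473 CPM in the E14.5 libraries (log2 fold change −1.57 ± 0.08, adjusted p = 5.35e-06), Hist1h1d 117 ± 10.3 CPM at E18.5 and 374 ± 30.3 CPM at E14.5 and Hist1h2ao 95.9 ± 6.12 CPM at E18.5 and 259.9 ± 15.8 CPM at E14.5. Histone genes have near-identical copies, and how reads shared between copies were assigned is uncertain. Ajuba, a LIM protein of cell junctions and Hippo signaling, had 22.6, 21.6, 23.5 and 20.1 CPM in the E18.5 libraries and 78.7, 78.2, 73.1, 82.2 and 65.3 CPM in the E14.5 libraries (log2 fold change −1.79 ± 0.10, adjusted p = 5.35e-06). Mme, the membrane peptidase neprilysin, fell to 3.07 ± 0.501 CPM at E18.5, against 42.7 ± 15.9 CPM at E14.5. Nxn, nucleoredoxin, fell to 17.3 ± 1.498 CPM at E18.5, against 51.2 ± 3.17 CPM at E14.5.

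Excitatory neuron identity genes were higher at E18.5 in 12 of 13 tested members, with none lower and a median log2 fold change of 2.66. Neurod6 and Neurod2, basic helix-loop-helix factors of young pyramidal neurons, had 232, 186, 200.1 and 209 CPM in the E18.5 libraries and 16, 6.98, 6.71, 1.27 and 20.97 CPM in the E14.5 libraries (log2 fold change 4.29 ± 0.57, adjusted p = 0.00029) and 204, 146, 188 and 119 CPM in the E18.5 libraries and 10.1, 5.397, 5.68, 1.27 and 17.7 CPM in the E14.5 libraries (log2 fold change 4.33 ± 0.54, adjusted p = 0.0002). Both genes were already at 120.4 to 240.4 and 72.8 to 206 CPM in the E16.5 libraries. Tiam2, a Rac activator of migrating neurons, had 426, 347, 409 and 349.8 CPM in the E18.5 libraries and 34.1, 40.4, 30.3, 18.1 and 35.4 CPM in the E14.5 libraries (log2 fold change 3.59 ± 0.20, adjusted p = 5.52e-06). The synaptic kinase genes Camk2b and Camk2a rose by 4.39 ± 0.36 and 2.36 ± 0.22, and Slc17a7, the vesicular glutamate transporter VGLUT1, by 3.18 ± 0.32 on the log2 scale. Slc17a6, VGLUT2, was the member with no call, at 0.74 ± 0.30 (adjusted p = 0.0585), and it passed without E14.5 control replicate 3 (0.97, adjusted p = 0.00997).

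Deep layer and corticofugal genes were higher in 12 of 15 tested members and lower in 1, with a median of 1.65. Bcl11b (CTIP2), which directs axons toward the spinal cord, had 418, 356, 436 and 397 CPM in the E18.5 libraries and 142, 128, 113, 64.2 and 175 CPM in the E14.5 libraries (log2 fold change 1.69 ± 0.24, adjusted p = 0.00031). Tbr1, the determinant of layer 6 identity, had 151, 113, 129 and 112 CPM in the E18.5 libraries and 31.2, 25.4, 10.7, 21.8 and 48.9 CPM in the E14.5 libraries (log2 fold change 2.17 ± 0.34, adjusted p = 0.000517). The E14.5 library with the highest Tbr1, Bcl11b and Neurod6 levels was control replicate 3 in each case, and it stayed below every E18.5 library used. Sox5, which times the birth of corticofugal neurons, had 185, 166, 165 and 145 CPM in the E18.5 libraries and 58.1, 52.6, 45.9, 45.6 and 58.1 CPM in the E14.5 libraries (log2 fold change 1.65 ± 0.10, adjusted p = 5.7e-06). Ntsr1, a neurotensin receptor of layer 6 neurons, had 26.6 ± 7.51 CPM at E18.5 and 1.36 ± 0.853 CPM at E14.5 (log2 fold change 4.28 ± 0.37, adjusted p = 2.7e-05). Ntsr1 also stood apart in time, since its E16.5 libraries were only at 3.43 to 10.4 CPM, whereas Tbr1 had 106 to 206 CPM at E16.5. The member that fell was Diaph3 (log2 fold change −1.35 ± 0.10, adjusted p = 1.21e-05), a formin needed for cell division.

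Upper layer and callosal genes were higher in 10 of 14 tested members and lower in 1, with a median of 1.09. Cux2, of upper-layer neurons and their progenitors, had 159.6, 135, 151 and 125 CPM in the E18.5 libraries and 38.96, 31.8, 63.5, 43.2 and 44.8 CPM in the E14.5 libraries (log2 fold change 1.73 ± 0.17, adjusted p = 4.09e-05). Unc5d, a netrin receptor of migrating upper-layer neurons, and Mef2c, a factor of neuronal maturation, rose by 2.55 ± 0.21 and 2.53 ± 0.23. Plxnd1, a semaphorin receptor that blood vessels also express, was the member lower (log2 fold change −0.47 ± 0.15, adjusted p = 0.0225), with libraries that overlapped between stages, and its adjusted p was 0.0632 to 0.0721 without E14.5 HFD replicate 2, E18.5 HFD replicate 2 or E18.5 control replicate 2. Cux1, Lhx2 and Inhba had no call.

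Interneuron and ventral telencephalon genes were higher in 13 of 17 tested members, with none lower and a median of 1.17. Interneurons are born below the cortex and migrate in. Gad1, which makes GABA, had 90.1, 99.5, 98.6 and 98.7 CPM in the E18.5 libraries and 17.97, 11.2, 25.1, 10.8 and 40.6 CPM in the E14.5 libraries (log2 fold change 2.28 ± 0.34, adjusted p = 0.000365), and the ventral factor gene Dlx2 had 45.5, 33.6, 40.5 and 46.01 CPM in the E18.5 libraries and 20.2, 17.99, 11.2, 19.8 and 28.2 CPM in the E14.5 libraries (log2 fold change 1.08 ± 0.22, adjusted p = 0.00228). The somatostatin and neuropeptide Y genes, Sst and Npy, reached 30.9 ± 6.41 and 8.17 ± 1.43 CPM at E18.5, against 8.63 ± 2.67 and 2.58 ± 0.845 CPM at E14.5. Slc32a1, which loads GABA into vesicles, rose by 1.83 ± 0.26 on the log2 scale. Nkx2-1, which stays in the ventral birthplace, had no call at 0.40 ± 0.31.

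Genes of subplate and Cajal-Retzius cells, the earliest neurons, were higher in 4 of 11 tested members and lower in 4 (median −0.77). The median was −0.36 without E18.5 control replicate 3, −0.49 without E14.5 control replicate 1 and 0.08 with HFD libraries only, while single libraries left out gave 4 higher and 4 or 5 lower. Reln, the secreted signal that Cajal-Retzius cells and interneurons make, had 636, 580.3, 507 and 539 CPM in the E18.5 libraries and 136, 92.6, 121, 76.3 and 246 CPM in the E14.5 libraries (log2 fold change 2.09 ± 0.31, adjusted p = 0.000393). Cdh8 and Calb2 were higher too, at 2.76 ± 0.25 and 0.97 ± 0.13. Ebf2 and Ebf3, factors of Cajal-Retzius cells that mesenchyme also expresses, fell to 4.81 ± 0.711 and 30.1 ± 9.42 CPM at E18.5, against 53.7 ± 16.52 and 152 ± 39.4 CPM at E14.5. Ccn2, a matrix protein of subplate neurons and connective tissue, was lower as well (log2 fold change −1.72 ± 0.21, adjusted p = 0.000127). Cplx3, a subplate synaptic gene, was too low to be tested, at 0.116 to 0.605 CPM in the E18.5 libraries and 0 to 0.692 CPM in the E14.5 libraries.

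All 27 tested glutamate and GABA receptor subunits were higher at E18.5, with log2 fold changes of 1.24 to 6.12 and a median of 2.72, and in each of the 27 the stages did not overlap. Grin1, the obligate NMDA receptor subunit, had 85.1, 68.5, 83.01 and 63.9 CPM in the E18.5 libraries and 4.17, 1.799, 6.54, 0.692 and 6.31 CPM in the E14.5 libraries (log2 fold change 4.33 ± 0.43, adjusted p = 4.77e-05). Gria2, the AMPA receptor subunit that limits calcium entry, had 377, 416, 451 and 414 CPM in the E18.5 libraries and 83.4, 48.2, 86.7, 36.4 and 145 CPM in the E14.5 libraries (log2 fold change 2.42 ± 0.34, adjusted p = 0.000296). Gabra5, a GABA-A receptor subunit gene of the fetal cortex, had 24.3 ± 2.51 CPM at E18.5 and 1.53 ± 0.455 CPM at E14.5 and rose by 4.002 ± 0.21.

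Presynaptic genes were higher in all 20 tested members (median 2.30) and postsynaptic scaffold and adhesion genes in all 17 (median 1.31). Syn1, a coat protein of synaptic vesicles, had 138, 137, 112 and 101 CPM in the E18.5 libraries and 22.5, 14.2, 23.4, 22.4 and 29.99 CPM in the E14.5 libraries (log2 fold change 2.45 ± 0.20, adjusted p = 2.2e-05). Syt1, the calcium sensor of vesicle release, had 151, 169, 151 and 158 CPM in the E18.5 libraries and 27.7, 17.5, 42.7, 21.3 and 48.3 CPM in the E14.5 libraries (log2 fold change 2.40 ± 0.26, adjusted p = 7.52e-05). The fusion machinery genes Vamp2 and Stx1a rose by 1.51 ± 0.09 and 2.07 ± 0.14. On the postsynaptic side, Dlg4 (PSD-95) had 225, 242, 237 and 218 CPM in the E18.5 libraries and 90.8, 69.7, 105, 72.1 and 107 CPM in the E14.5 libraries (log2 fold change 1.39 ± 0.14, adjusted p = 4.06e-05), and Shank2 had 181, 186, 191 and 135 CPM in the E18.5 libraries and 40.5, 23.9, 59.5, 37.8 and 58.4 CPM in the E14.5 libraries (log2 fold change 2.04 ± 0.24, adjusted p = 0.000112). Lrrtm4 and Dlgap1 rose by 2.12 ± 0.15 and 2.34 ± 0.21. All these genes were present at E14.5, and in none of those given did the stages overlap.

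Voltage-gated ion channel genes were higher in 23 of 24 tested members (median 1.93). Scn2a, the sodium channel of young axons, had 146, 155, 155 and 146 CPM in the E18.5 libraries and 16.1, 9.21, 28.9, 9.23 and 18.3 CPM in the E14.5 libraries (log2 fold change 3.27 ± 0.30, adjusted p = 3.32e-05), and Scn1a rose by 2.02 ± 0.17. Cacna1e, a calcium channel, rose by 2.75 ± 0.22.

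The chloride cotransporters moved in opposite directions, with 2 of 5 tested members higher and 3 lower. Slc12a5 (KCC2) extrudes chloride from neurons and makes GABA inhibitory as the brain matures, while Slc12a2 (NKCC1) brings chloride in. Slc12a5 had 63.6, 74.8, 80.2 and 51.9 CPM in the E18.5 libraries and 11.02, 8.68, 21.2, 7.497 and 21.4 CPM in the E14.5 libraries (log2 fold change 2.36 ± 0.31, adjusted p = 0.000206). Slc12a2 had 70.3, 76.1, 76.1 and 80.3 CPM in the E18.5 libraries and 105, 124, 92.9, 123 and 120.1 CPM in the E14.5 libraries (log2 fold change −0.57 ± 0.10, adjusted p = 0.00103). The stages did not overlap in either gene. The related genes Slc12a7 (−1.13 ± 0.12) and Slc12a4 (−1.10 ± 0.24) were lower, the last with overlapping libraries.

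Neuronal cytoskeleton and axon growth genes were higher in 20 of 22 tested members (median 1.66), with none lower. Tubb3, the neuron-specific tubulin, had 1656, 1560.1, 1500.1 and 1798 CPM in the E18.5 libraries and 532, 376, 707, 428 and 810.2 CPM in the E14.5 libraries (log2 fold change 1.57 ± 0.20, adjusted p = 0.000168). Dcx, which binds the microtubules of migrating neurons, had 1803, 1944, 1644 and 2074 CPM in the E18.5 libraries and 478, 298, 577, 307 and 860.0 CPM in the E14.5 libraries (log2 fold change 1.95 ± 0.29, adjusted p = 0.000385). Mapt (tau) and Sptbn4, a spectrin of the axon initial segment, rose further, by 3.32 ± 0.35 and 3.68 ± 0.37. Axon guidance genes were higher in 19 of 28 and lower in 4 (median 0.91). The Slit receptor genes Robo1 and Robo2 rose by 0.64 ± 0.11 and 1.09 ± 0.16, while the ligand gene Slit2 fell to 66.5 ± 7.35 CPM at E18.5, against 137 ± 7.51 CPM at E14.5.

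Neuronal RNA-binding and splicing genes were higher in 16 of 20 tested members and lower in 3 (median 1.40). Rbfox1 and Rbfox3 (NeuN), splicing factors of neurons, had 85.1 ± 4.27 CPM at E18.5 and 13.4 ± 9.53 CPM at E14.5 and 24.7 ± 2.46 CPM at E18.5 and 6.61 ± 1.37 CPM at E14.5. The 3 that fell act in progenitors. Ptbp1, which represses neuronal exons, had 134, 132, 123 and 141 CPM in the E18.5 libraries and 391, 442, 292, 401 and 298 CPM in the E14.5 libraries (log2 fold change −1.47 ± 0.13, adjusted p = 2.26e-05). Msi1 (log2 fold change −0.49 ± 0.14, adjusted p = 0.0153) and Msi2 (log2 fold change −0.26 ± 0.10, adjusted p = 0.0445) bind RNA in neural stem cells. Msi1 had an adjusted p of 0.066 and 0.0644 without E18.5 control replicate 2 or 3, and Msi2 one of 0.0731 to 0.136 without any of 6 of the 9 libraries (all but E14.5 HFD replicate 2, E14.5 control replicate 1 and E18.5 HFD replicate 2). Nova1 had no call, at 0.66 ± 0.27 (adjusted p = 0.0586), with E14.5 libraries that overlapped those of E18.5, and it passed without E14.5 control replicate 3 (adjusted p = 0.0246).

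**Figure D2:**
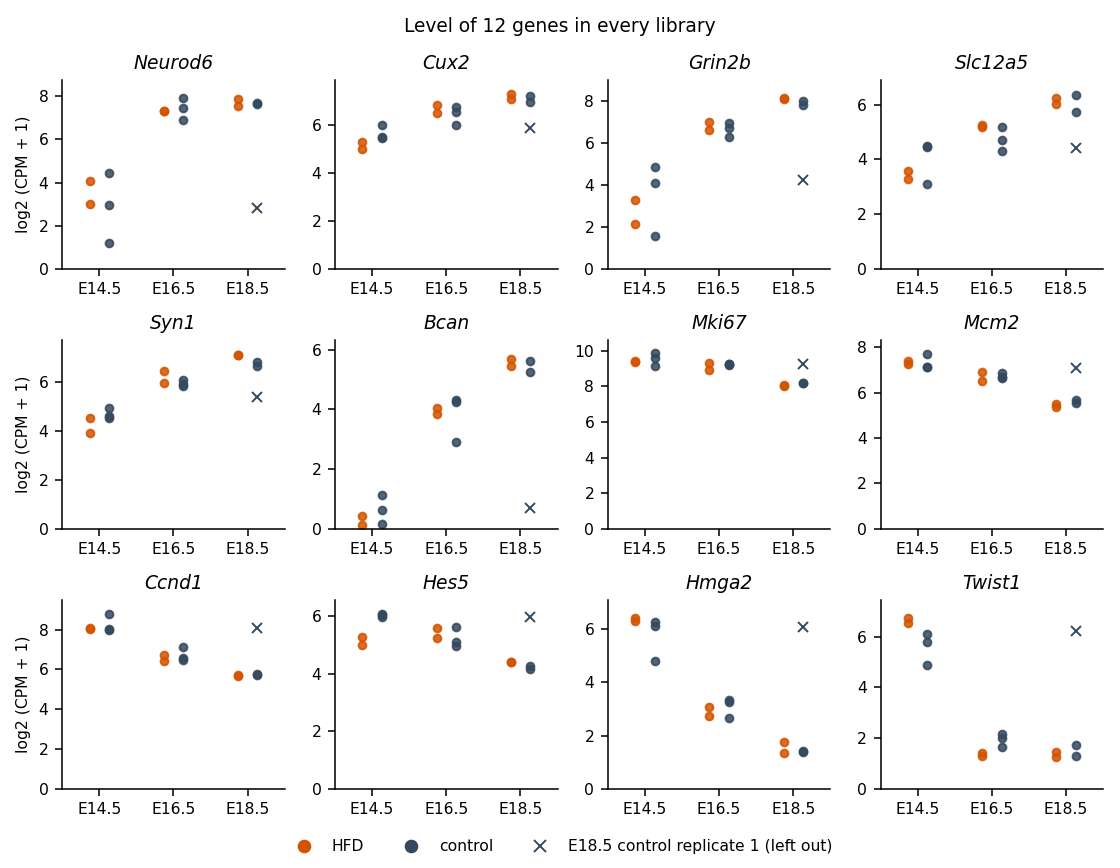
Level of 12 genes in all 15 libraries as log2 (CPM + 1), by stage along the horizontal axis. Orange points are HFD and dark points control libraries, and the cross is E18.5 control replicate 1, which was left out and lies with the E14.5 libraries in most panels. The 6 genes from Neurod6 to Bcan are higher and the 6 from Mki67 to Twist1 lower in the E18.5 libraries used than in the E14.5 libraries.

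Cell division genes fell as a block. All 28 tested mitosis genes were lower at E18.5, with log2 fold changes between −1.87 and −1.16 (median −1.51) and no overlap between stages in any of the 28. Mki67, the proliferation marker, had 274, 256, 286 and 296 CPM in the E18.5 libraries and 670.4, 677, 563, 952 and 760.0 CPM in the E14.5 libraries (log2 fold change −1.37 ± 0.14, adjusted p = 4.47e-05). Top2a, which untangles chromosomes, had 188, 196, 217 and 235 CPM in the E18.5 libraries and 545, 547, 459, 691 and 608 CPM in the E14.5 libraries (log2 fold change −1.44 ± 0.12, adjusted p = 2.02e-05). Kif20a, a motor of cytokinesis, Bub1b, of the spindle checkpoint, and Nuf2, of the kinetochore, fell to 33.3 ± 2.99, 30.8 ± 2.83 and 18.4 ± 2.46 CPM at E18.5, against 108 ± 9.31, 111 ± 18.3 and 54.4 ± 8.96 CPM at E14.5.

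Of 30 tested genes of origin licensing and DNA replication, 29 were lower and 1 higher (median −1.25). Mcm2, of the helicase that licenses origins, had 44.5, 40.3, 46.5 and 49.9 CPM in the E18.5 libraries and 156, 169, 139.9, 211 and 139 CPM in the E14.5 libraries (log2 fold change −1.84 ± 0.14, adjusted p = 1.45e-05). Pcna, the sliding clamp of the polymerases, had 67.7, 64.5, 58.9 and 82.9 CPM in the E18.5 libraries and 132, 143, 107, 177 and 168 CPM in the E14.5 libraries (log2 fold change −1.07 ± 0.16, adjusted p = 0.000347). Mcm3 and Rrm2, the ribonucleotide reductase subunit, fell to 34.7 ± 3.18 and 18.9 ± 3.13 CPM at E18.5, against 115 ± 17.01 and 62.6 ± 12.1 CPM at E14.5. The exception was Gins2, a subunit of the GINS complex of the replicative helicase. It had 91.7, 73.6, 77.4 and 76.04 CPM in the E18.5 libraries and 53.1, 51.3, 53.3, 68.4 and 59.9 CPM in the E14.5 libraries (log2 fold change 0.49 ± 0.11, adjusted p = 0.00377), so that its lowest E18.5 library was above its highest E14.5 library.

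Replication genes are known targets of E2F factors, and many mitosis genes carry the CHR element that the DREAM complex reads in resting cells. The promoters of the members were therefore searched for the letters of these motifs. RefSeq promoter windows (build GRCr8, 250 bases before to 50 bases after the start) matched 24 of the 30 replication genes by symbol. Of these, 13 (54.2%) held TTTCCCGC, TTTGGCGC, TTTCGCGC or TTTGCCGC on either strand, against 2.14% of all 33469 promoter windows. Windows matched 23 of the 28 mitosis genes, and 17 (73.9%) held TTTGAA on either strand, against 18.3% of all windows. Gins2 was not among the 13 replication genes with E2F letters. Neither were other replication genes with a matched window, and those were lower at E18.5. A match is a description of letters and does not show that a factor binds. Pieces of 100 bases from upstream of the start are shown for the 3 replication genes with the smallest p that held a match wholly upstream of the start, with the matched letters in capitals. In Mcm2 and Mcm6 a match on each strand overlaps the other. Mcm5 holds such a pair too, starting 213 and 209 bases upstream of the start and so outside the piece shown.
Mcm2 (chr4:122918095-122918194, minus strand, bases −100 to −1 from the start): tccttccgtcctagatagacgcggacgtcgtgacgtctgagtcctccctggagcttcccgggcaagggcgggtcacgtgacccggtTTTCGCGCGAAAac
Mcm6 (chr13:42404438-42404537, minus strand, bases −185 to −86 from the start): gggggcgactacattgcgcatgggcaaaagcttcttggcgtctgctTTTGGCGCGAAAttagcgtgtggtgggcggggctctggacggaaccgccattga
Mcm5 (chr19:13488713-13488812, plus strand, bases −100 to −1 from the start): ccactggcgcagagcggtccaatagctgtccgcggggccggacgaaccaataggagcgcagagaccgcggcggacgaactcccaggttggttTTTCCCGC
The log2 fold changes of these genes were −1.84 in Mcm2, −1.44 in Mcm6 and −1.91 in Mcm5. Of the mitosis genes, Cenpa, which marks centromeres, and Top2a are shown with the CHR letters in capitals, on the opposite strand in Top2a, and their log2 fold changes were −1.79 and −1.44.
Cenpa (chr6:31431619-31431718, minus strand, bases −166 to −67 from the start): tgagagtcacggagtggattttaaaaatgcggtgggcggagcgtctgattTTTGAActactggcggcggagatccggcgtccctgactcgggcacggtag
Top2a (chr10:84473094-84473193, minus strand, bases −100 to −1 from the start): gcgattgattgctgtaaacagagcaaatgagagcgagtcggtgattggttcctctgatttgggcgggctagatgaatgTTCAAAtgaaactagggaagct

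The list of cell cycle exit and inhibitor genes also held cyclin genes. Of its 11 tested members 4 were higher and 4 lower, against 29.0% and 28.1% over all genes. Ccnd1 (cyclin D1), which drives progenitors into S phase, had 49.3, 51.9, 54 and 50.98 CPM in the E18.5 libraries and 271, 262, 259, 437 and 255 CPM in the E14.5 libraries (log2 fold change −2.50 ± 0.17, adjusted p = 1.16e-05), and Ccnd3 was lower too (−1.71 ± 0.16). Cdkn1c (p57), a cell cycle inhibitor, was lower as well, at 62.1 ± 9.82 CPM at E18.5 and 265 ± 89.4 CPM at E14.5. Cdkn1b (p27), the inhibitor of young neurons, was slightly higher (log2 fold change 0.47 ± 0.13, adjusted p = 0.0118) with overlapping libraries. The neuronal kinase genes Cdk5 and Cdk5r1, which act after division, rose by 0.96 ± 0.11 and 2.33 ± 0.30.

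Radial glia genes were divided. Of 20 tested members, 10 were lower, 4 higher and 6 without a call (median −0.55). Pax6, a factor of dorsal radial glia, had 36.2, 28.9, 29.3 and 34.1 CPM in the E18.5 libraries and 48.6, 37.4, 27.01, 52.7 and 77 CPM in the E14.5 libraries (log2 fold change −0.58 ± 0.26, adjusted p = 0.0876), and the stages overlapped. Without E14.5 control replicate 1, its lowest E14.5 library, Pax6 passed (−0.73, adjusted p = 0.0128). Sox2, of neural stem cells, had 160.1, 162, 159 and 151 CPM in the E18.5 libraries and 137, 124, 119.6, 207 and 207 CPM in the E14.5 libraries (log2 fold change 0.03 ± 0.18, adjusted p = 0.895), and every E18.5 library fell inside the E14.5 range. Vim (vimentin) had 456, 432, 466 and 491 CPM in the E18.5 libraries and 1129, 1190.2, 1115, 1117 and 1024 CPM in the E14.5 libraries (log2 fold change −1.27 ± 0.08, adjusted p = 8.25e-06). The Notch effector genes Hes1 and Hes5 fell to 10.5 ± 0.521 and 18.9 ± 1.63 CPM at E18.5, against 32.8 ± 3.97 and 52.3 ± 16.7 CPM at E14.5. The 4 members that rose were Tnc (1.91 ± 0.21), Slc1a3 (1.15 ± 0.15), Ptprz1 (1.10 ± 0.21) and Fabp7 (1.42 ± 0.43), the last losing its call without E14.5 HFD replicate 2 (1.17, adjusted p = 0.0596). Tnc and Ptprz1 mark outer radial glia in human cortex, and Slc1a3 (GLAST) and Fabp7 are kept in astrocytes.

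Intermediate progenitor genes were higher in 4 of 13 tested members and lower in 5, shares near those over all genes. The number lower was 3 without E14.5 HFD replicate 1, E18.5 control replicate 2 or E18.5 control replicate 3, and 7 without E14.5 HFD replicate 2. Eomes (TBR2), their defining factor, had 51.2, 41.1, 38.4 and 34.5 CPM in the E18.5 libraries and 19.1, 15.98, 5.85, 13.96 and 30.3 CPM in the E14.5 libraries (log2 fold change 1.23 ± 0.35, adjusted p = 0.0136). Its E16.5 libraries were above both, at 58.9 to 95.9 CPM. Neurog2 had 23.96, 16.1, 20.5 and 17.1 CPM in the E18.5 libraries and 17.7, 10.6, 28.05, 18.9 and 39.1 CPM in the E14.5 libraries (log2 fold change −0.12 ± 0.31, adjusted p = 0.769), while Neurog1 fell to 3.03 ± 0.637 CPM at E18.5, against 14.8 ± 4.01 CPM at E14.5. Dll1, the Notch ligand of committed progenitors, was lower (log2 fold change −0.77 ± 0.16, adjusted p = 0.00215), and Neurod1 was higher (log2 fold change 0.87 ± 0.10, adjusted p = 7.5e-05). Neurog2 had 35.6 to 62.2 CPM in the E16.5 libraries.

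Astrocyte onset genes were higher in 14 of 21 tested members and lower in 5 (median 1.02). Gfap, the astrocyte filament, was barely present, with 2.93, 2.44, 3.34 and 3.75 CPM in the E18.5 libraries and 1.39, 3.598, 1.38, 1.73 and 0.902 CPM in the E14.5 libraries (log2 fold change 0.79 ± 0.38, adjusted p = 0.102), and it passed without E14.5 HFD replicate 2 (1.24, adjusted p = 0.00878). Aqp4, the water channel of astrocyte endfeet, had 7.76, 7.32, 6.82 and 5.45 CPM in the E18.5 libraries and 2.44, 2.65, 1.89, 0.807 and 0.902 CPM in the E14.5 libraries (log2 fold change 1.98 ± 0.28, adjusted p = 0.000229). Aldoc and Clu, the aldolase and the secreted chaperone of astrocytes, had 78.8, 75.7, 64.6 and 76.9 CPM in the E18.5 libraries and 12.9, 14.7, 13.6, 8.77 and 14.1 CPM in the E14.5 libraries (log2 fold change 2.52 ± 0.14, adjusted p = 5.35e-06) and 59.5, 70.3, 58.01 and 86.2 CPM in the E18.5 libraries and 10.3, 6.46, 10.3, 7.38 and 8.91 CPM in the E14.5 libraries (log2 fold change 3.00 ± 0.17, adjusted p = 5.7e-06). Mlc1 and Aldh1l1 rose by 4.32 ± 0.47 and 3.48 ± 0.58. The members that fell were Sox9, Id3, Gja1, Fgfr3 and Acsl3, of which Sox9 and Fgfr3 are also genes of radial glia. Sox9 fell to 82.9 ± 3.82 CPM at E18.5, against 184 ± 17.1 CPM at E14.5.

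Oligodendrocyte lineage genes were called higher in 5 of 14 tested members and lower in 2 (median 0.50), against 29.0% and 28.1% over all genes. Olig1, an early lineage factor, had 24.1, 26.6, 27.1 and 21.1 CPM in the E18.5 libraries and 2.32, 2.86, 2.75, 5.31 and 2.25 CPM in the E14.5 libraries (log2 fold change 3.00 ± 0.24, adjusted p = 1.75e-05), whereas Olig2, which ventral progenitors also express, had 18.8, 24.2, 25.4 and 16.6 CPM in the E18.5 libraries and 10.3, 11.6, 14.1, 22.8 and 20.9 CPM in the E14.5 libraries (log2 fold change 0.50 ± 0.23, adjusted p = 0.0898). Olig2 passed without E14.5 control replicate 2 (0.60, adjusted p = 0.0447) or E18.5 control replicate 3 (0.72, adjusted p = 0.0169). Pdgfra and Sox10, of oligodendrocyte precursors, were lower, at 58.4 ± 11.6 and 4.09 ± 0.397 CPM at E18.5, against 250.2 ± 114 and 15.9 ± 9.097 CPM at E14.5. Outside the brain Pdgfra is expressed in mesenchyme and Sox10 in neural crest. The mesenchyme list was lower at E18.5, as given below. Of 11 tested neural crest genes 8 were lower and 0 higher (median −2.27), and in 3 of the 11 the stages did not overlap. The part of these tissues in the values of Pdgfra and Sox10 was not tested. In the E16.5 libraries Pdgfra had 21.8 to 48.2 and Sox10 0.856 to 2.54 CPM. The myelin genes Mbp and Mog were called higher, with 14.98 ± 0.271 CPM at E18.5 and 8.54 ± 1.54 CPM at E14.5 and 23.2 ± 1.502 CPM at E18.5 and 12.8 ± 0.934 CPM at E14.5. Whether reads of overlapping or antisense genes enter these values is uncertain, as the handling of strand is not stated.

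**Figure D3:**
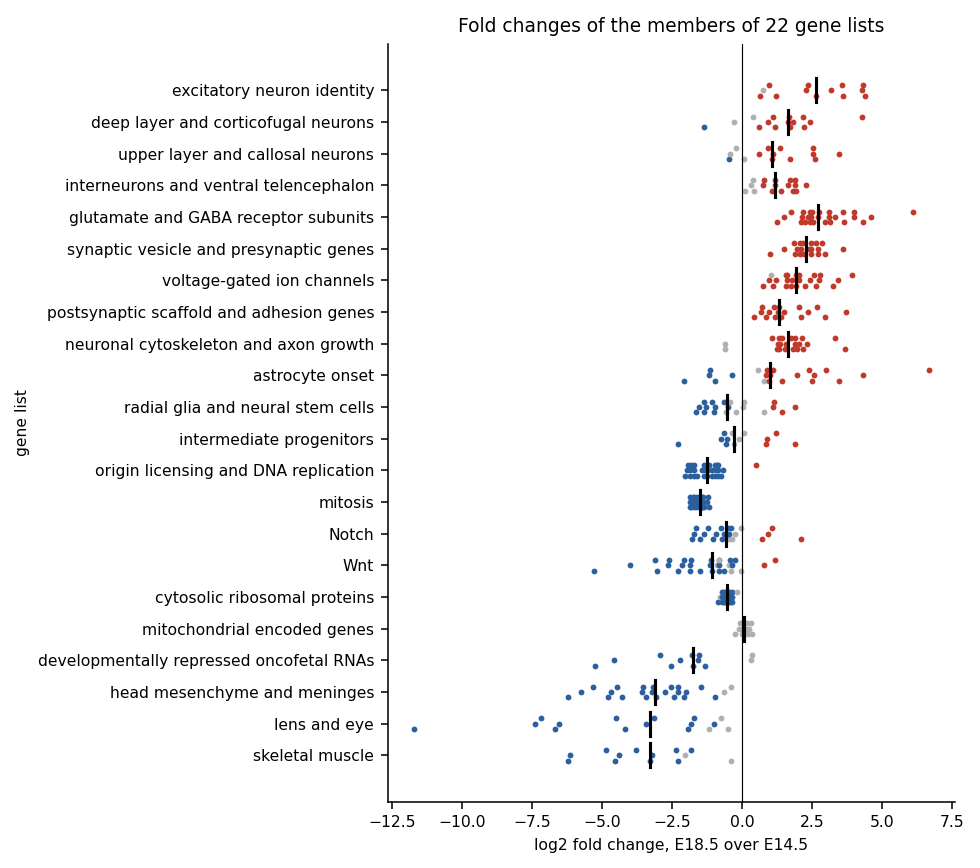
Log2 fold change of E18.5 over E14.5 (horizontal axis) for each tested member of 22 gene lists (rows). Red and blue points were called higher and lower, grey points were not called, and the black bar is the median. Receptor, presynaptic and mitosis genes lie wholly on 1 side of 0, while radial glia and intermediate progenitor genes lie on both.

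Polycomb and H3K27 demethylase genes were lower in 8 of 19 tested members and higher in 4 (median −0.28), and higher in 2 without E14.5 HFD replicate 2, E18.5 HFD replicate 1 or E18.5 control replicate 2. Ezh2, the H3K27 methyltransferase that the study followed, had 86.9, 103, 89.4 and 94.9 CPM in the E18.5 libraries and 149.8, 146, 123, 180.3 and 177 CPM in the E14.5 libraries (log2 fold change −0.72 ± 0.12, adjusted p = 0.000738), with every E18.5 library below every E14.5 library. Its paralogue Ezh1 rose (log2 fold change 0.59 ± 0.12, adjusted p = 0.00204). Cbx2 and Rbbp7 were lower, at 50.1 ± 2.296 and 95.9 ± 7.84 CPM at E18.5, against 125 ± 18.7 and 178 ± 19.8 CPM at E14.5. Suz12 and Eed, the partners of Ezh2, were lower by 0.58 and 0.70 on the log2 scale, with overlapping libraries in Suz12. Bmi1, of the other Polycomb complex, was higher (log2 fold change 0.68 ± 0.10, adjusted p = 0.00026).

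The BAF chromatin remodeling complex exchanges progenitor subunits for neuronal ones as neurons form. Actl6a, a progenitor subunit, had 20.9, 27.1, 27.5 and 34.99 CPM in the E18.5 libraries and 54.5, 59.4, 46.1, 72.2 and 70.5 CPM in the E14.5 libraries (log2 fold change −1.11 ± 0.16, adjusted p = 0.00025). Its neuronal counterpart Actl6b had 69.3, 67.8, 74.7 and 76.5 CPM in the E18.5 libraries and 16.4, 8.25, 24.3, 8.19 and 26.2 CPM in the E14.5 libraries (log2 fold change 2.19 ± 0.32, adjusted p = 0.00034). The neuronal subunit genes Dpf1 and Ss18l1 rose by 2.02 ± 0.20 and 1.54 ± 0.16, and the progenitor subunit genes Phf10 and Dpf2 fell by 0.58 ± 0.08 and 0.67 ± 0.10. Over the list, 9 of 18 tested members were higher and 5 lower. Of 13 DNA methylation genes, 7 were lower and 3 higher. Uhrf1, which carries methylation through replication, had 64.6, 55.9, 60.8 and 70.7 CPM in the E18.5 libraries and 203, 227, 161, 282 and 236 CPM in the E14.5 libraries (log2 fold change −1.81 ± 0.16, adjusted p = 2.33e-05), Dnmt3b fell to 5.69 ± 0.174 CPM at E18.5, against 14.2 ± 3.704 CPM at E14.5, and Dnmt1 and Dnmt3a fell by 0.40 ± 0.08 and 0.67 ± 0.08.

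Genes of early signaling pathways were mostly lower. How far the mesenchyme reads of the E14.5 libraries, given below, enter these values was not tested. In the Wnt list 23 of 30 tested members were lower and 2 higher (median −1.08), and in the Notch list 14 of 22 were lower and 4 higher (median −0.57). Axin2, a target that reports Wnt activity, had 48.4, 53.4, 46.9 and 49.04 CPM in the E18.5 libraries and 105, 90.5, 116, 105 and 101 CPM in the E14.5 libraries (log2 fold change −1.06 ± 0.09, adjusted p = 2.23e-05), and Lef1, the transcription partner of β-catenin, had 19.99, 29.5, 22.99 and 21.3 CPM in the E18.5 libraries and 72.01, 79.7, 60.05, 62.5 and 57.4 CPM in the E14.5 libraries (log2 fold change −1.51 ± 0.12, adjusted p = 1.6e-05). The ligand genes Wnt7a (1.196 ± 0.22) and Wnt7b (0.79 ± 0.21) were the 2 Wnt members higher. FGF and hedgehog genes were lower in 15 of 23 (median −0.91), among them the hedgehog receptor genes Smo and Ptch1 at −1.81 ± 0.11 and −0.91 ± 0.17. The members higher included Fgf12, Fgf13 and Fgf14, which bind sodium channels inside the cell rather than act as ligands, at 2.26, 1.32 and 1.73 on the log2 scale. TGF-beta and BMP genes were lower in 19 of 31 and higher in 5 (3 without E18.5 control replicate 2, median −0.79), with Bmp4 at 2.85 ± 1.03 CPM at E18.5 and 17.8 ± 6.499 CPM at E14.5.

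Genes of the fetal growth program fell. Among 12 tested oncofetal RNAs, which are shut off as tissues mature, 10 were lower and none higher (median −1.77). Hmga2, a chromatin protein of early stem cells, had 2.41, 1.51, 1.604 and 1.695 CPM in the E18.5 libraries and 76.5, 84.2, 67.97, 76.2 and 26.6 CPM in the E14.5 libraries (log2 fold change −5.24 ± 0.37, adjusted p = 1.36e-05). Igf2bp2 and Igf2bp3 fell to 57.9 ± 6.49 and 31.1 ± 2.41 CPM at E18.5, against 198 ± 38.1 and 92.1 ± 18.9 CPM at E14.5. Lin28a (−2.93 ± 0.71) and Lin28b (−1.73 ± 0.52), which block let-7 maturation, were lower at few CPM. In the IGF list 6 of 11 were lower and 2 higher. Igf2 had 148, 143, 166 and 171 CPM in the E18.5 libraries and 1019, 1042, 886, 678 and 262 CPM in the E14.5 libraries (log2 fold change −2.29 ± 0.34, adjusted p = 0.000413), and Igf1, Igfbp5 and Igfbp4 were lower too. Hmga2 was at 5.27 to 9.08 CPM and Igf2 at 82.3 to 175 CPM in the E16.5 libraries.

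Glycolysis genes were lower in 13 of 21 and higher in 6 (median −0.58). The hexokinase genes moved in opposite directions, with Hk2, of growing cells, at 18.8, 18.8, 19.9 and 18.4 CPM in the E18.5 libraries and 67.03, 67.3, 64.01, 88.9 and 56.03 CPM in the E14.5 libraries (log2 fold change −1.85 ± 0.14, adjusted p = 1.28e-05) and Hk1, of neurons, at 119, 127, 137 and 114 CPM in the E18.5 libraries and 56.5, 51.8, 74.5, 51.9 and 53.8 CPM in the E14.5 libraries (log2 fold change 1.12 ± 0.12, adjusted p = 5.64e-05). Ldha, which makes lactate, fell to 150.0 ± 8.804 CPM at E18.5, against 343 ± 59.8 CPM at E14.5. AMPK, AKT and insulin signaling genes had 9 of 23 members higher and 2 lower (median 0.10), and 5 lower without E14.5 control replicate 3. Of the AMPK catalytic subunits, which the study also followed, Prkaa2 had 42.7, 44.4, 43.98 and 42.6 CPM in the E18.5 libraries and 12.2, 9.63, 15.7, 10.1 and 19.1 CPM in the E14.5 libraries (log2 fold change 1.74 ± 0.18, adjusted p = 4.88e-05), whereas Prkaa1 had 36.1 ± 2.57 CPM at E18.5 and 36.01 ± 2.89 CPM at E14.5 and no call (log2 fold change 0.01 ± 0.09, adjusted p = 0.959). Cholesterol and fatty acid synthesis genes were higher in 5 and lower in 6 of 25 (median 0.00), and 3 were higher without any single one of the HFD libraries or without E14.5 control replicate 1 or 2. None of the 13 mitochondrial genes was called in either direction, and their median was 0.09 with single genes between −0.25 and 0.36. Cytosolic ribosomal protein genes were lower in 28 of 30, with log2 fold changes of −0.85 to −0.19 and a median of −0.52, and Rps6 had 240.4, 246, 255 and 304 CPM in the E18.5 libraries and 471, 446, 478, 525 and 444 CPM in the E14.5 libraries (log2 fold change −0.85 ± 0.09, adjusted p = 5.02e-05). The ribosomal median was −0.61 to −0.44 under every other scaling and test tried.

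Red blood cell genes were higher in 2 of 12 tested members and lower in 6 (median −1.12). Hbe1, an ε-type embryonic globin, had 22.2, 26.7, 23.4 and 46.5 CPM in the E18.5 libraries and 959, 1477, 829, 1659 and 1149.5 CPM in the E14.5 libraries (log2 fold change −5.35 ± 0.33, adjusted p = 9.23e-06), and Hbg1 fell to 3.34 ± 2.27 CPM at E18.5, against 263 ± 208 CPM at E14.5. The adult β-globin gene Hbb rose, with 537, 698, 228 and 679 CPM in the E18.5 libraries and 40.01, 32.6, 39.4, 6.34 and 79.1 CPM in the E14.5 libraries (log2 fold change 3.74 ± 0.65, adjusted p = 0.00139), while Hba-a2 had no call (log2 fold change 0.39 ± 0.20, adjusted p = 0.122), passing without E18.5 control replicate 2 (0.59, adjusted p = 0.00751). Globin genes are near-identical within a cluster, so the split of reads between them is uncertain. Of 16 tested endothelial genes 6 were higher and 6 lower, and the number lower was 3 without E14.5 HFD replicate 2, E14.5 control replicate 2, E18.5 HFD replicate 1, E18.5 HFD replicate 2 or E18.5 control replicate 2. Cldn5, of the barrier's tight junctions, rose (log2 fold change 1.83 ± 0.18, adjusted p = 4.45e-05), as did the transporter genes Slco1c1 (2.04 ± 0.24) and Slc7a5 (0.99 ± 0.10), while Cdh5, which all endothelium expresses, fell (log2 fold change −0.81 ± 0.20, adjusted p = 0.00615). Among 17 tested microglia genes 3 were higher (6 without E14.5 HFD replicate 2) and 1 lower, and Csf1r had no call (log2 fold change 0.19 ± 0.16, adjusted p = 0.323), passing without E14.5 HFD replicate 2 (0.35, adjusted p = 0.0411). The gene lower was Tmem119, which bone-forming cells also express, at 1.04 ± 0.174 CPM at E18.5 and 21.05 ± 10.04 CPM at E14.5.

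Lists of tissues that surround the brain had medians between −3.29 and −2.23. Head mesenchyme and meninges genes were lower in 22 of 24 tested members (median −3.12), bone and cartilage in 10 of 13 (−2.23), skeletal muscle in 11 of 13 (−3.29), surface epithelium in 12 of 14 (−3.14), and lens and eye in 13 of 16 (−3.28), with none higher in any of these lists. The number of muscle genes lower was 6 of 13 without E14.5 HFD replicate 1, E18.5 HFD replicate 1, E18.5 HFD replicate 2 or E18.5 control replicate 3, 7 with a replicate block and 5 with limma-voom. With E18.5 control replicate 1 included, 7 mesenchyme, 2 bone, 0 muscle, 3 epithelium and 3 lens genes were lower. Twist1, a factor of head mesenchyme, had 1.72, 1.39, 1.47 and 2.301 CPM in the E18.5 libraries and 91.4, 106, 68.5, 53.98 and 28.2 CPM in the E14.5 libraries (log2 fold change −5.32 ± 0.37, adjusted p = 1.27e-05). Col1a1, the fibrillar collagen, had 217, 288, 740.4 and 412 CPM in the E18.5 libraries and 2477, 1837, 3269, 1400.5 and 754 CPM in the E14.5 libraries (log2 fold change −2.29 ± 0.48, adjusted p = 0.00301). Myod1 had 0, 0.116, 0 and 0 CPM in the E18.5 libraries and 6.49, 3.39, 5.68, 0.577 and 0.225 CPM in the E14.5 libraries, a ratio of 93.1-fold lower (95% interval 16.4 to 3710, exact for the counts). The lens gene Cryaa was high in all 5 E14.5 libraries, while Myod1 was high in 3 of them.

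The summed level of the mesenchyme list was 527 to 1296 CPM in the E18.5 libraries used, against 1878 to 5959 CPM in the E14.5 libraries. The lens list summed to 16.7 to 28.8 CPM at E18.5, against 269 to 471 CPM at E14.5, and the muscle list to 7.90 to 15.8 CPM at E18.5, against 9.81 to 167 CPM at E14.5. Control replicate 3 had the lowest mesenchyme and muscle sums of the E14.5 libraries. Hox genes, which are silent in the forebrain, were at most 0.267 CPM in sum at E18.5, against 0.338 to 36.3 CPM at E14.5. Diencephalon and midbrain genes were lower in 12 of 19 (median −1.47), with Irx3 at 1.896, 1.86, 2.14 and 1.33 CPM in the E18.5 libraries and 31.8, 25.8, 44.6, 42.8 and 17.4 CPM in the E14.5 libraries (log2 fold change −4.14 ± 0.35, adjusted p = 2.4e-05). The E14.5 libraries thus held reads of lens and mesenchyme genes beside those of cortex, and their part in the changes of genes shared with those tissues was not tested. E18.5 control replicate 1 had a mesenchyme sum of 4984 CPM and a lens sum of 268 CPM.

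The summed mesenchyme, lens and muscle levels of the E16.5 libraries were lower than those of the E14.5 libraries, at 454 to 1104, 14.4 to 23.2 and 6.36 to 7.63 CPM. E18.5 was also set against E16.5 (a comparison chosen after seeing the data, which shares the E18.5 libraries). Of 15354 genes, 1625 (10.6%) were higher and 1812 (11.8%) lower at E18.5 than at E16.5. The mesenchyme, bone, muscle and lens lists had medians of 0.19, 0.25, 0.21 and 0.12 in it, and the surface epithelium and the diencephalon and midbrain lists medians of −0.42 and −0.33. All 28 mitosis genes (median −1.21) and 29 of 30 replication genes (−1.001) were lower there too. Receptor subunits were higher in 16 of 27 (1.05), presynaptic genes in 13 of 20 (0.75) and channels in 13 of 24 (0.67), with none lower in these 3 lists. Excitatory identity genes were higher in 4 of 13 (0.24) and deep layer genes in 5 of 15 (0.20). Wnt genes were lower in 12 of 30 (−0.36) and Notch genes in 16 of 22 (−0.51). FGF and hedgehog genes were higher in 2 and lower in 7 of 23 (0.01). TGF-beta and BMP genes were higher in 5 and lower in 5 of 31 (0.12). IGF genes were higher in 1 and lower in none of 11 (0.08).

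**Figure D4:**
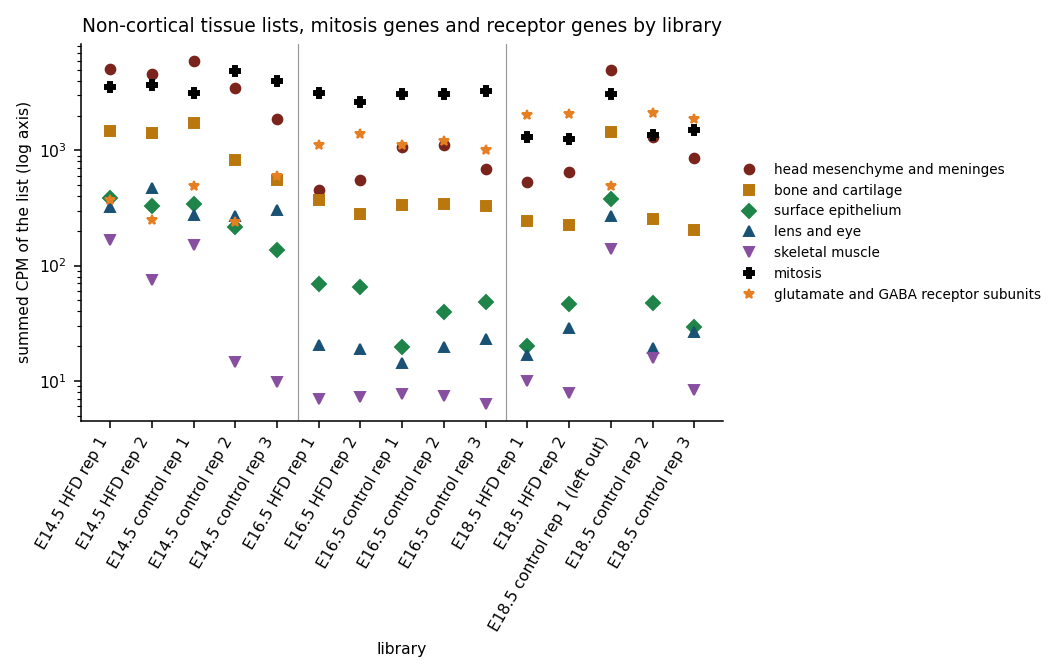
Summed CPM of 7 gene lists (log axis) in each of the 15 libraries, ordered by stage and, within a stage, HFD before control. The lens list lies at 269 to 471 CPM in the E14.5 libraries and at 14.4 to 28.8 CPM in the E16.5 and E18.5 libraries used. The library left out lies within or next to the E14.5 range in every list shown. Its mitosis sum of 3105 CPM also lies within the 2621 to 3248 CPM of the E16.5 libraries.

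Whether the change over development differed between HFD and control was tested as an interaction in the same 9 libraries. EdgeR's quasi-likelihood test called 0 of 15217 genes (0%) at an adjusted p under 0.05, and the smallest adjusted p was 0.93. At an unadjusted p under 0.05 there were 689 genes, 301 with a larger and 388 with a smaller log2 fold change in HFD. DESeq2 called 2 genes and limma-voom 0. All 8691 genes called over both diets had the same sign of log2 fold change within HFD and within control. They were selected by the stage effect over these same libraries, which favors equal signs, so the agreement is not a separate result. Across genes, which are not independent replicates, the log2 fold changes of HFD and control had a Pearson's r of 0.84 and a Spearman's rho of 0.87, and the median absolute difference between them was 0.22. With 2 or 3 libraries in each group, the median SE of that difference among called genes was 0.30, and 701 called genes (8.07%) had estimates more than 1 log2 unit apart.

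The genes with the smallest interaction p did not pass the threshold and are given as values. Hist2h2aa2, a histone H2A gene, had 3.79 and 2.56 CPM in HFD and 59.7 and 82.5 CPM in control at E18.5, and 292 and 146 CPM in HFD and 222, 413 and 254 CPM in control at E14.5. Its log2 fold change was −6.13 ± 0.52 in HFD and −2.06 ± 0.38 in control (adjusted p of the difference = 0.93 by edgeR and 1.07e-09 by DESeq2). Hist2h2aa2 has near-identical copies. The interferon-induced gene Ifi27 had 3.79 and 2.67 CPM in HFD and 8.82 and 11.02 CPM in control at E18.5, and 6.03 and 6.24 CPM in HFD and 3.79, 3.11 and 3.83 CPM in control at E14.5 (adjusted p = 0.93). The second gene that DESeq2 called, AABR07002885.1, carries no gene symbol. Rfx4, a factor of radial glia, had log2 fold changes of 0.13 ± 0.22 in HFD and −1.62 ± 0.20 in control, with E14.5 levels of 12.1 and 8.15 CPM in HFD and 23.7, 26.6 and 23.8 CPM in control. The Notch effector Hes5 had 20.3 and 20.1 CPM in HFD and 16.8 and 18.4 CPM in control at E18.5, and 38.03 and 30.7 CPM in HFD and 61.3, 66.7 and 65.1 CPM in control at E14.5, so that its log2 fold change was −0.76 ± 0.14 in HFD and −1.87 ± 0.14 in control (adjusted p = 1).

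Lists differed in how far their medians within each diet lay apart. Receptor subunits had a median log2 fold change of 3.09 in HFD and 2.52 in control, presynaptic genes 2.70 in HFD and 2.03 in control, replication genes −1.34 in HFD and −1.18 in control, and mitosis genes −1.55 in HFD and −1.53 in control. Apart from the Hox list with 2 tested members, the widest gaps were in skeletal muscle at −4.49 in HFD and −2.68 in control, surface epithelium at −3.91 in HFD and −2.25 in control, diencephalon and midbrain at −0.50 in HFD and −2.07 in control, subplate and Cajal-Retzius cells at 0.07 in HFD and −1.12 in control, neuronal RNA-binding at 1.95 in HFD and 1.001 in control, and intermediate progenitors at 0.13 in HFD and −0.61 in control. These differences were not tested. The muscle sums of E14.5 control replicates 2 and 3, 14.53 and 9.81 CPM, lay within the 7.90 to 15.8 CPM of the E18.5 libraries.

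**Figure D5:**
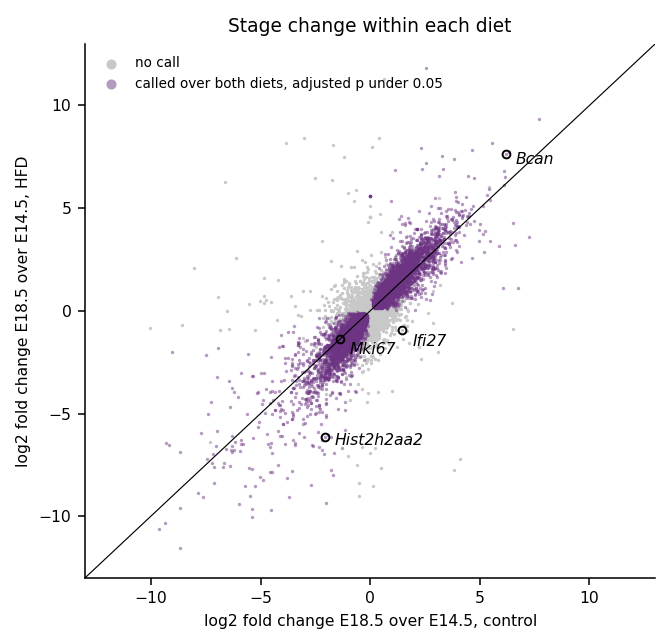
Log2 fold change of E18.5 over E14.5 in HFD (vertical axis) against the same in control (horizontal axis), 1 point per gene tested, with the line of equal change. Purple points were called over both diets, a selection that favors equal signs, and all 8691 of them have the same sign on both axes. Hist2h2aa2 and Ifi27 lie below the line but their differences did not pass the threshold by edgeR.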

How the data were processed

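Cortex RNA of 9 libraries was compared, 4 from E18.5 and 5 from E14.5. The authors deposited 1 table of estimated counts (whole numbers, not normalized) for 32623 rat Ensembl genes in 15 libraries. Alignment used Bowtie2 and the rn6 assembly (RGSC 6.0), and the counting tool was RSEM 1.2.12 in the methods but HTSeq in the submitters' notes. The annotation release named is a human one although the table holds rat genes, and no source used here states how strand was handled. How reads of gene copies were shared, and overlapping or antisense genes, are therefore uncertain. Genes identical in every count to another (107 of those tested) were left unnamed.

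Genes were kept with filterByExpr by group of stage and diet. EdgeR 4.0.16 (R 4.3.3, robust quasi-likelihood fit, TMM scaling) tested stage with diet as a covariate and, in a second fit, their interaction, with Benjamini-Hochberg adjustment over all genes tested and a threshold of 0.05. SE was derived from the F statistic, as |log2 fold change| over its root. For log2 CPM 2 counts were added as prior. Library totals lay between 5849460 and 9030629 counts. Floors (3 counts per library) and exact 95% intervals cover counting error only. Libraries are single litters, so p-values measure the spread between litters within groups.

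Members of 46 lists (861 distinct genes, 833 in the table, 805 tested) and the members of the comparison were chosen with earlier results of these data known. No set test was run. Named were up to 12 genes per direction by log2 fold change and 8 by p (at least 10 CPM in the higher stage, libraries not overlapping, a gene symbol), from each list the first 2 and up to 3 per direction by p, and from the interaction up to 5 per direction by p. Acsl3, Aldh1l1, Camk2a, Camk2b, Cux1, Fabp7, Fgfr3, Inhba, Lhx2, Mlc1, Nkx2-1, Slc17a6, Slc17a7 and AABR07002885.1 were added after their values were seen, and Mcm5, Mcm6 and Cenpa by their promoter match and p. The fits were tested on simulated data. Alternatives were DESeq2 1.42.0, voom (limma 3.58.1), scaling by RLE or by the upper quartile, other filters, other sets of libraries, a replicate block and no diet term. Promoters came from RefSeq (GRCr8), matched by symbol. A few genes that the rule would name are not reported here.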

Additional observations from a re-analysis of the deposited data

Results flagged for a closer look

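E18.5 control replicate 1, which entered no comparison between stages as reported, held more RNA of head tissues than the 4 other E18.5 libraries. Its summed levels were 4984 CPM for head mesenchyme and meninges, against 527 to 1296 CPM in the others, and 1435 CPM for bone and cartilage, against 203 to 253 CPM. They were 138 CPM for skeletal muscle, against 7.90 to 15.8 CPM, 381 CPM for surface epithelium, against 20.0 to 47.3 CPM, and 268 CPM for lens and eye, against 16.7 to 28.8 CPM.

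Among 510 sets of 4 E18.5 or 5 E14.5 libraries (a gene's level, a list's sum or a library measure), 45 had 1 library whose gap to the nearest other was large against the range of the set, and chance alone gives about 1 in 20. E14.5 control replicate 2 stood high in Ccnd1 (437 CPM, against 255 to 271 CPM in the other E14.5 libraries) and Hbg1 (624 CPM, against 140 to 257 CPM). The same held for Lin28a (15.7 CPM), Lin28b (9.23 CPM), Igf2bp3 (126 CPM), Bub1b (142 CPM), Diaph3 (33.1 CPM), Acsl3 (86.8 CPM) and Olig1 (5.31 CPM). It was also highest in Cplx3 (0.692 CPM), which was too low to be tested, and in Ptgds (0.115 CPM, 1 read). Its sums for glycolysis (4257 CPM) and DNA methylation (1720 CPM) were high, and its level of the lens gene Cryba4 was low (1.499 CPM, against 12.7 to 15.2 CPM).

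E14.5 control replicate 3 stood high in Lhx2 (193 CPM, against 85.9 to 110 CPM), Neurod1 (36.8 CPM), Camk2a (6.76 CPM), Mlc1 (2.25 CPM) and the interneuron sum (569 CPM, against 297 to 373 CPM), and low in Hmga2 (26.6 CPM, against 68.0 to 84.2 CPM), the pericyte sum (372 CPM) and the sum for AMPK, AKT and insulin signalling (2710 CPM). E14.5 HFD replicate 2 stood high in Cryaa (242 CPM) and the lens sum (471 CPM). E14.5 control replicate 1 had the lowest total, at 5849460 counts against 8276858 to 9030629, and stood high in Hk1 (74.5 CPM) and Aldh1l1 (3.44 CPM).

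E18.5 HFD replicate 1 had a TMM factor of 0.832, against 0.990 to 1.02, and stood high in Hivep2 (339 CPM), Camk2b (213 CPM), Pitx1 (0.517 CPM) and the intermediate progenitor sum (619 CPM), and low in Gad1 (90.1 CPM) and Msi2 (34.1 CPM). E18.5 HFD replicate 2 stood low in Ngef (18.2 CPM) and held the E18.5 counts of Myod1 (0.116 CPM). E18.5 control replicate 3 stood low in Shank2 (135 CPM, against 181 to 191 CPM), Rbfox1 (78.7 CPM), Rbfox3 (21.1 CPM) and the ion channel sum (1750 CPM), and high in the sums for endothelium (617 CPM) and cell cycle exit (862 CPM) and in Cryaa (0.121 CPM). E18.5 control replicate 2 alone among the 4 had counts of Crybb3 (0.134 CPM) and Pax1 (0.267 CPM).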

How the results depend on the processing

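Leaving out each library in turn gave 3891 to 4424 genes higher and 3682 to 4457 lower, and 0 genes for the difference between diets each time. With control libraries alone 2399 genes were higher and 1928 lower, with fewer samples in the fit. With E18.5 control replicate 1 included, 2646 were lower. DESeq2 called 2 genes for the difference between diets. All other settings stayed within 1.5 times the reported counts and gave no interaction call. Of the 8691 calls, between 84.3% and 99.5% were also called under other scalings, tests and filters, 49.4% with control libraries alone and 70.4% with E18.5 control replicate 1. No called gene turned its sign in any of these. Without E18.5 HFD replicate 1, 6 did. The one-mean-per-group fit over 14 libraries moved the median log2 fold change by −0.05 and upper-quartile factors by −0.07, and the share of calls that were higher was 46.1% and 45.2% under these 2, against 50.8% as reported.

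Directions turned only in named genes near 0 or from the interaction. Sox2 was −0.037 with upper-quartile factors, −0.062 with E18.5 control replicate 1, −0.00098 with one mean per group, −0.22 with control libraries only, −0.0042 with the replicate block, −0.0087 without the diet term and −0.065 to 0.11 without single libraries. Prkaa1 was −0.062 with upper-quartile factors, −0.00021 with DESeq2, −0.0076 without a filter, −0.048 with E18.5 control replicate 1, −0.050 with one mean per group, −0.011 with HFD libraries only, −0.027 with the replicate block and −0.047 to 0.051 without single libraries. With HFD libraries only, Csf1r was −0.095, Ifi27 −0.95, Lhx2 0.023, Neurog2 0.49 and Rfx4 0.13. With control libraries only, Cux1 was −0.047. Without single libraries Lhx2 ranged over −0.32 to 0.036 and Neurog2 over −0.35 to 0.082, both highest without E14.5 control replicate 3. Without a filter on low counts, Barx1, Eomes, Fabp7 and Msi2 lost their call (adjusted p = 0.0551 to 0.072). The cause was not tested.

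Replicate numbers are shared between stages, but litters differ. Deviations of same-numbered libraries from their group means had correlations of −0.08, 0.19, 0.05 and 0.05. These few values are tied to those of differently numbered libraries (−0.26 to 0.26) and cannot decide whether the numbers pair the samples. The fit with a replicate block gave 4546 genes higher and 4419 lower and changed the call of Slc17a6 alone among the genes named.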
